A study of Mus musculus with 14 samples.

Results

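Toll-like receptors are membrane proteins of innate immune cells that recognise microbial products and, for some of them, molecules released by damaged host cells. TLR1, TLR2, TLR5 and TLR6 act mainly at the cell surface, where TLR2 pairs with TLR1 or TLR6 to bind lipoproteins and TLR5 binds flagellin. TLR3, TLR7, TLR8, TLR9 and TLR13 act inside endosomes on nucleic acids, and the chaperone UNC93B1 carries them there from the endoplasmic reticulum. In the central nervous system microglia are the resident macrophages and express most of these receptors. Here the genes of the murine Toll-like receptors other than TLR4, TLR11 and TLR12 were followed with Unc93b1 through RNA-seq of dorsal horn microglia. The members were the 10 of 14329 genes whose symbol was Tlr1, Tlr2, Tlr3, Tlr5, Tlr6, Tlr7, Tlr8, Tlr9, Tlr13 or Unc93b1.

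The 14 libraries were made from microglia sorted from the dorsal lumbar spinal cord of 6-month-old C57BL/6 mice. WT mice came from the TASTPM colony and carried no human transgene, whereas TASTPM mice were heterozygous for human transgenes, among them APP with the Swedish mutation, each behind a Thy-1 promoter, which is active in neurons. Mice received i.p. serum from arthritic K/BxN mice (K/BxN ST) or pooled serum from KRN/C57 mice (Control ST), and cells were collected on day 5. There were 3 WT Control ST, 4 WT K/BxN ST, 3 TASTPM Control ST and 4 TASTPM K/BxN ST libraries, each from 2000 CD45low CD11b+ CX3CR1+ cells, and the gate of the study also left out Ly6C+ and CCR2+ cells. Mice of both sexes were used, but the labels do not give the sex behind a library. The methods of the study count 3 to 4 mice in each group, as many as there are libraries, but the labels do not say that each library was 1 mouse. WT Control ST library 3 held Xist, the RNA of the inactive X chromosome of females, at 1706 normalized counts together with 852 over 4 Y-linked genes, and TASTPM Control ST library 3 held 202 and 2577, so 1 mouse per library cannot be assumed and the p-values measure the spread between libraries. The comparisons asked whether serum transfer changed the receptor transcripts in either genotype and whether TASTPM differed from WT.

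The libraries held from 14223015 to 20239175 reads in genes. The 9 microglia markers, among them Tmem119 and P2ry12, summed to 249796 to 995078 normalized counts, which are reads divided by 1 factor per library, so microglial RNA was present throughout. However, 4 K/BxN ST libraries stood apart, namely WT 1 and 2 and TASTPM 1 and 2. Their 9 classical monocyte markers, such as Ly6c2 and Ccr2, summed to 75660 to 144945 against 18.4 to 246 in the other 10 libraries. In 3 of the 4 libraries the 10 neutrophil markers summed to 193514 to 217704, against 6.71 to 2753 in the other 10. In WT K/BxN ST library 2 they summed to 3527, of which Mmp8 alone gave 3245, and the other 9 markers summed to 282, so this library stood apart by its monocyte markers and not by its neutrophil markers as a list. The 7 markers of border-associated macrophages summed to 11584 to 35537 in the 4 libraries against 4.78 to 1915, but F13a1, which monocytes also express, made up most of this, and the other 6 markers summed to 1226 to 3343 against 0 to 947. Mrc1, one of these, was 294 to 942 in the 4 libraries and 599 in TASTPM K/BxN ST library 3. The 5 dendritic cell markers in the table summed to 1039 to 8973 against 0.838 to 224, although Zbtb46 among them was no higher, at 4.43 to 132 against 0.838 to 223. The microglia markers summed to 249796 to 600069 in these 4 libraries and to 734435 to 995078 in the other 10. Of the T and NK cell markers, 0 of 5 were in the values. The 4 red cell markers summed to 40840 in WT Control ST library 3, and the next highest sum was 4571, in TASTPM K/BxN ST library 4. WT Control ST library 3 also had the highest neutrophil sum outside the 4 libraries that stood apart, 2753. In bulk samples, fewer cells of a type and less RNA per cell cannot be told apart. The part of these other cells in the results that follow was not tested beyond the values given with and without the 4 libraries and the fit with the monocyte and neutrophil score as a covariate.

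Tlr1 and Tlr6 are neighbours on chromosome 5 that share part of their coding sequence, and this bears on how their reads can be assigned. Tlr1 lies at chr5:65082022-65090941 and Tlr6 at chr5:65108704-65203497, both on the minus strand of GRCm39. Their longest identical stretch is 229 bases, inside a coding exon of each gene, at chr5:65082880-65083108 in Tlr1 and chr5:65111171-65111399 in Tlr6. A read that falls wholly inside this stretch cannot be placed by its sequence alone. The stretch is shown as it stands in Tlr1, in capitals, with 20 flanking bases on either side in lower case.
Tlr1: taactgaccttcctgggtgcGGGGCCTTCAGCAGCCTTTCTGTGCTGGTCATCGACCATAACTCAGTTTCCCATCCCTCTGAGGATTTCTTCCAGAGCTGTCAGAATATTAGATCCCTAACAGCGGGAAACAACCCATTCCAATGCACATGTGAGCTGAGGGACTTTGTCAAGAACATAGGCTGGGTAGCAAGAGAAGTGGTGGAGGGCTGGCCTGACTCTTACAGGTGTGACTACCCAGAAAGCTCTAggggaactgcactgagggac
No other pair of these genes shared more than 40 identical bases. Tlr7 at chrX:166086758-166113605 and Tlr8 at chrX:166024184-166047325, both on the minus strand, are also neighbours, and Tlr13 lies on the same chromosome at chrX:105186810-105204533 on the plus strand. The other members are spread over the genome, with Tlr2 at chr3:83743576-83749074 (minus strand, 1 exon), Tlr3 at chr8:45848702-45864117 (minus), Tlr5 at chr1:182782311-182805500 (plus), Tlr9 at chr9:106099797-106104082 (plus) and Unc93b1 at chr19:3985167-3999341 (plus). The exons of Tlr3 overlap those of an antisense lncRNA, Gm45542, over 438 bases (8.19% of its exon length), and the cDNA kit does not mark strand, so reads of the pair cannot be told apart there. Unc93b1 shares 1.66% of its exon length with the antisense lncRNA Gm59336.

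RefSeq promoters of GRCm38.p6, from 250 bases before to 50 after the start, were found for 8 of the 10 members, with 10 promoters in all. They were searched on both strands for GAGGAAGT, a form of the site of the myeloid factor PU.1, and for GAAA, any 2 bases and GAAA again, a form of the site of interferon regulatory factors. The first was in 3.20% of 32851 RefSeq promoters and the second in 3.44%. Among the members, 1 of the 2 Tlr1 promoters and the Tlr9 promoter held the first motif, and 1 of the 2 Tlr6 promoters held the second, with 2 overlapping matches. These 3 promoters are shown with the matches in capitals, each on the strand of its gene (in Tlr6 and Tlr9 the capitals read as the reverse complement of the motif), because they belong to genes whose levels per kilobase differed widely, as given next. The Tlr1 window is chr5:64933509-64933808 (minus strand), the Tlr6 window chr5:64959117-64959416 (minus strand) and the Tlr9 window chr9:106222348-106222647 (plus strand).
Tlr1 promoter: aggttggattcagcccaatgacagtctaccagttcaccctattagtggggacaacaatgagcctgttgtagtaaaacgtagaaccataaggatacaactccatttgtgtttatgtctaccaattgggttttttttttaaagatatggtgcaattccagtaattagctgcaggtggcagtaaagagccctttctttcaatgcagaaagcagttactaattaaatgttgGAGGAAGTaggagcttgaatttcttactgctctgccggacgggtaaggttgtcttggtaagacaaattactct
Tlr6 promoter: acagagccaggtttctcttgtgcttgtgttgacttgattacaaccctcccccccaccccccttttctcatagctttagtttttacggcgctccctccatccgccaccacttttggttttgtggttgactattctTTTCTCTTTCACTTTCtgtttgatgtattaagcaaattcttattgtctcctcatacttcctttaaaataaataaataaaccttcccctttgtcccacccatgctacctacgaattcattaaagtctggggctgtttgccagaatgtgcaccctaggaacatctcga
Tlr9 promoter: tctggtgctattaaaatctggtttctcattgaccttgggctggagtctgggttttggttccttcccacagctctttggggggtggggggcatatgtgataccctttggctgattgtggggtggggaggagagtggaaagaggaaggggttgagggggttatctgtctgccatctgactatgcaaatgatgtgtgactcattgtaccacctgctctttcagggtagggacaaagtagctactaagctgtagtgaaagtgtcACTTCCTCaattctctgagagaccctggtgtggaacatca
A match describes the letters and is no evidence of binding.

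Levels between genes were compared as normalized counts per kilobase of annotated exon. Unc93b1 was the most abundant member, with a median of 7640 per kilobase (range 4404 to 9497 over the 14 libraries). It exceeded Tlr13, the endosomal receptor for bacterial ribosomal RNA, in 14 of 14 libraries, with medians 4.65-fold apart. Tlr13 (median 1644 per kilobase), Tlr7 (1306) and Tlr2 (1152) followed and were not separated by the spread between libraries, since Tlr13 exceeded Tlr7 in 10 of 14 libraries and Tlr7 exceeded Tlr2 in 6 of 14. For comparison, Tlr4 had a median of 659 per kilobase. Tlr3 (median 419) and Tlr1 (408) came next and crossed each other, with Tlr3 above Tlr1 in 3 of 14 libraries. Tlr6 had a median of 207 per kilobase and lay below Tlr1 in 13 of 14 libraries.

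The lowest levels belonged to Tlr5, Tlr9 and Tlr8. Tlr5 had a median of 21.3 per kilobase and Tlr9 of 10.4, and Tlr5 exceeded Tlr9 in 10 of 14 libraries. Tlr1, with the PU.1 letters in 1 of its promoters, had a median of 408 per kilobase, and Tlr9, also with these letters, 10.4. Whether the letters bear on these levels was not tested. The median of Tlr8 was 0.856 per kilobase, but its range ran from 0 to 182. Within the lipoprotein receptors, Tlr2 exceeded Tlr1 by 2.45-fold (median of the ratio within libraries, range 1.91 to 4.78) and Tlr6 by 5.44-fold (2.88 to 8.76). Among the receptors for nucleic acids, Tlr7 exceeded Tlr9, the receptor for CpG DNA, in 14 of 14 libraries, by 25.5-fold or more per kilobase.

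**Figure D1:**
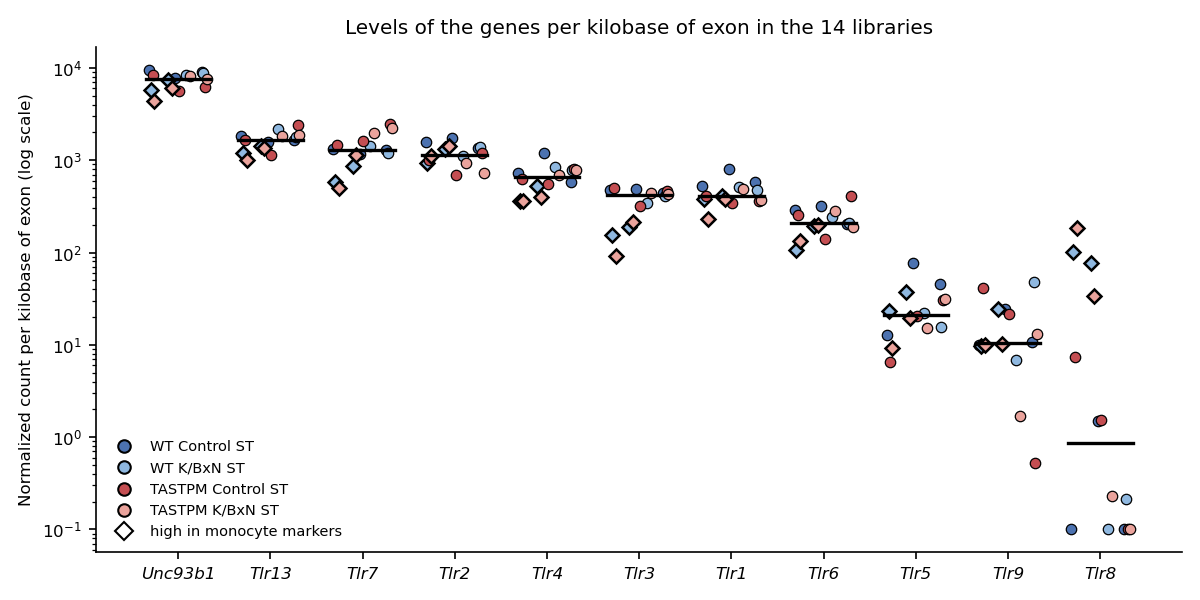
Normalized count per kilobase of exon (log scale) of the 10 genes and Tlr4 in each of 14 libraries, coloured by group, with a bar at the median; diamonds mark the 4 K/BxN ST libraries high in monocyte markers, and values of 0 are drawn at the lower edge of the axis, at 0.1. Unc93b1 lies highest, with a median of 7640, and Tlr8 is spread from 0 to 182, with the 4 diamonds on top.

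In WT mice, 0 of the 9 members that passed the filter on low counts (at least 10 reads in at least 7 libraries) differed between the sera by the criteria used here, which were a limma p below 0.05 after adjustment and more than a 2-fold difference in either direction (above 1 in absolute log2 value). Over all genes, 1 of 12645 (0.00791%) was called. An unadjusted p below 0.05 was reached by 0 of the 9 members and by 7.13% of all genes. In TASTPM mice 0 of 9 members were called, against 0 of 12645 genes (0%), and 0 of 9 had an unadjusted p below 0.05, against 4.22% of all genes. Over both genotypes the serum comparison again called 0 of 9 members and 0 of 12645 genes (0%), and 1 member, Tlr3, had an unadjusted p below 0.05, against 9.25% of all genes. edgeR and DESeq2 also called 0 members in each of these comparisons. The fitted serum differences of the 9 members were negative for 8 in WT (median -0.40 against 0.057 over all genes, log2 scale), for 7 in TASTPM (median -0.18 against 0.0056) and for 9 of 9 over both genotypes (median -0.25 against 0.035). Without the 4 libraries high in monocyte markers the fitted values over both genotypes were positive for Tlr7 (0.14), Tlr13 (0.19) and Unc93b1 (0.11), with SE of 0.15, 0.18 and 0.13. With the monocyte and neutrophil score as a covariate they were 0.18, 0.20 and 0.13.

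Tlr8, a receptor for RNA breakdown products, had the widest spread. It was the 1 member that failed the filter on low counts, with at least 10 reads in 5 of 14 libraries. In WT K/BxN ST its normalized counts were 521, 396, 0 and 1.09, and in TASTPM K/BxN ST 928, 173, 1.17 and 0. WT Control ST had 0, 7.54 and 0, and TASTPM Control ST had 37.6, 7.77 and 0. The 4 high values, from 182 to 892 reads, were in the 4 libraries high in monocyte markers, which held 97.5% of all Tlr8 reads. In the other 10 libraries Tlr8 had 0 to 36 reads, and the 4 remaining K/BxN ST libraries had 0 or 1. In a second fit with Tlr8 added, K/BxN ST exceeded Control ST by 3.65 ± 2.63 on the log2(normalized count + 1) scale in WT (± SE, 95% confidence interval -1.98 to 9.28, adjusted p = 0.774, limma) and by 1.80 ± 2.63 in TASTPM (-3.82 to 7.43, adjusted p = 0.966). The exact two-sided permutation p was 0.343 in WT and 0.571 in TASTPM. Over both genotypes the difference was 2.73 with the 4 libraries, -1.37 without them and -1.10 with the marker score as a covariate. DESeq2 gave 5.35 over both genotypes with an adjusted p of 0.200, and edgeR 5.31 with 0.419.

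The genes whose centred log2 levels lay nearest to those of Tlr8 over the 14 libraries were Ccnb1, the mitotic cyclin, Birc5, a protein of cell division, and H2-Ab1, an MHC class II chain. Their root mean square differences from Tlr8 were 1.36, 1.46 and 1.57 on the log2 scale, beside a standard deviation of 3.81 for Tlr8 itself. Ccnb1 had 549 to 2102 normalized counts in the 4 libraries and at most 103 in the other 10, and H2-Ab1 had 9696 to 42072 and at most 1673. The same search for Tlr9 gave 4930512B01Rik, Slc25a23 and Ifit2, at 0.81, 0.86 and 0.88, beside a standard deviation of 1.58. Tlr9 had only 1.82 to 165 normalized counts and 4930512B01Rik at most 38.6, so these are low counts. The likeness of these genes was not tested.

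**Figure D2:**
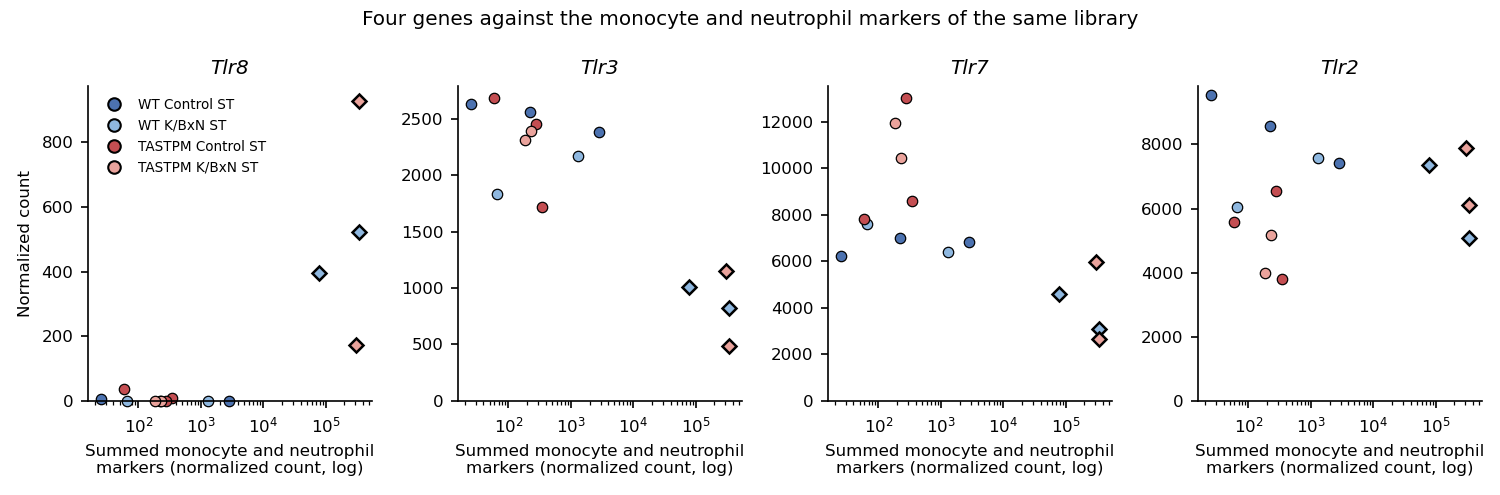
Normalized counts of Tlr8, Tlr3, Tlr7 and Tlr2 (vertical axis, from 0) against the summed monocyte and neutrophil markers of the same library (horizontal axis, log scale), with 1 point per library coloured by group and diamonds for the 4 K/BxN ST libraries high in monocyte markers. Tlr8 reaches 173 to 928 in the diamonds and at most 37.6 elsewhere, Tlr3 and Tlr7 are lower in the diamonds than in the other 10 libraries, and Tlr2 overlaps.

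Tlr3, the receptor for long RNA duplexes, had 2558, 2632 and 2385 normalized counts in WT Control ST, whereas WT K/BxN ST had 820, 1010, 1830 and 2172. Each WT K/BxN ST library was thus below each WT Control ST library, as for 3.71% of all genes. TASTPM Control ST had 2678, 1718 and 2451, and TASTPM K/BxN ST had 489, 1147, 2388 and 2308, and these groups overlapped. The fitted difference was -0.90 ± 0.47 in WT (95% confidence interval -1.91 to 0.10, adjusted p = 0.711, limma) and -0.76 ± 0.47 in TASTPM (-1.76 to 0.25, adjusted p = 0.964). Over both genotypes it was -0.83 ± 0.33 (-1.54 to -0.12, unadjusted p = 0.0252, adjusted p = 0.536), with an exact stratified permutation p of 0.0408. The 4 lowest values, 489 to 1147, were in the 4 libraries high in monocyte markers, while the other 4 K/BxN ST libraries had 1830 to 2388. Without those 4 libraries the difference over both genotypes was -0.14 ± 0.16, and with the marker score as a covariate it was -0.11 ± 0.21.

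Tlr7, the X-linked receptor for single-stranded RNA, had 6996, 6239 and 6845 normalized counts in WT Control ST, whereas WT K/BxN ST had 3078, 4585, 7597 and 6402. TASTPM Control ST had 7818, 8612 and 13026, and TASTPM K/BxN ST had 2648, 5969, 10452 and 11938. The 4 libraries high in monocyte markers were again the lowest, at 2648 to 5969, and the other 10 ranged from 6239 to 13026. Between the sera the groups overlapped in each genotype, and the fitted difference was -0.39 ± 0.43 in WT (adjusted p = 0.833, limma) and -0.52 ± 0.43 in TASTPM (adjusted p = 0.964). The 4 low libraries also had the sex-linked markers of males, with 0 to 12.5 normalized counts of Xist and 1872 to 2272 over 4 Y-linked genes. Of the other 4 K/BxN ST libraries, 3 had 3247 to 5816 of Xist and 1.09 to 46.3 over the Y-linked genes, so within K/BxN ST the monocyte and the sex-linked markers ran together in all but TASTPM library 3. Over the 14 libraries, 4 others had male markers (Y-linked sum 2145 to 2737, more than 10 times Xist) without high monocyte markers, namely WT Control ST 1 and 2, TASTPM Control ST 3 and TASTPM K/BxN ST 3. These 4 are among the 10 libraries whose Tlr3, Tlr7 and Tlr8 values are given above, and the part of sex in the serum differences was not tested beyond the fit with the sex-linked score. With the sex-linked score as a covariate the serum difference over both genotypes was -0.37 ± 0.30 for Tlr7, 2.01 ± 1.66 for Tlr8 and -0.72 ± 0.31 for Tlr3 (adjusted p = 0.762, 0.771 and 0.632, limma). The Tlr8 value joined unlike signs, 4.82 ± 2.37 in WT and -0.80 ± 2.57 in TASTPM.

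The remaining endosomal members did not pass the test either. Tlr13 ranged from 4752 to 11498 normalized counts and had serum differences of -0.067 in WT (95% confidence interval -0.67 to 0.54) and -0.18 in TASTPM (-0.78 to 0.42). Unc93b1 ranged from 27532 to 59374, with -0.22 (-0.75 to 0.32) and -0.069 (-0.61 to 0.47). The 4 libraries high in monocyte markers had 4752 to 6729 of Tlr13, below the 8446 to 10449 of the other K/BxN ST libraries. Without them the differences were 0.23 ± 0.26 and 0.15 ± 0.26 for Tlr13 and -0.016 ± 0.18 and 0.23 ± 0.18 for Unc93b1 (WT and TASTPM). The sign thus turned in both genotypes for Tlr13 (unadjusted p = 0.39 and 0.57, limma) and in TASTPM for Unc93b1 (unadjusted p = 0.23). These values were not distinguished from 0. For these 2 genes the intervals of the fit to all libraries left out a change of 2-fold in either direction in each genotype. Tlr9 had 1.82 to 165 normalized counts, from 2 to 151 reads, and its intervals were -2.32 to 2.86 (WT) and -2.90 to 2.29 (TASTPM), so that changes of several-fold in either direction lay inside them.

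Of the surface receptors, Tlr1 had 1772, 2734 and 1981 normalized counts in WT Control ST, whereas WT K/BxN ST had 1288, 1373, 1751 and 1619. Each WT K/BxN ST library was again below each WT Control ST library, as for 3.71% of all genes. The nearest values of these groups, 1751 and 1772, lay close together. The fitted serum difference was -0.51 ± 0.25 in WT (95% confidence interval -1.03 to 0.022, adjusted p = 0.699, limma) and -0.061 ± 0.25 in TASTPM (-0.59 to 0.47, adjusted p = 0.989). The exact permutation p in WT was 0.0571, where 0.0286 is the smallest that 4 against 3 libraries allow. Tlr2 had differences of -0.40 (-0.93 to 0.13) in WT and 0.12 (-0.41 to 0.65) in TASTPM, and Tlr6 of -0.56 (-1.36 to 0.23) and -0.35 (-1.15 to 0.45). Leaving out the 4 libraries high in monocyte markers gave -0.34 in WT and 0.19 in TASTPM for Tlr1, -0.33 and -0.19 for Tlr2, and -0.24 and -0.090 for Tlr6. The sign thus turned in TASTPM for Tlr1 and Tlr2, but neither value was distinguished from 0 (unadjusted p = 0.44 for each, limma). Tlr5 was low, at 43.9 to 511 normalized counts, and its intervals were -2.05 to 0.85 (WT) and -1.34 to 1.56 (TASTPM).

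**Figure D3:**
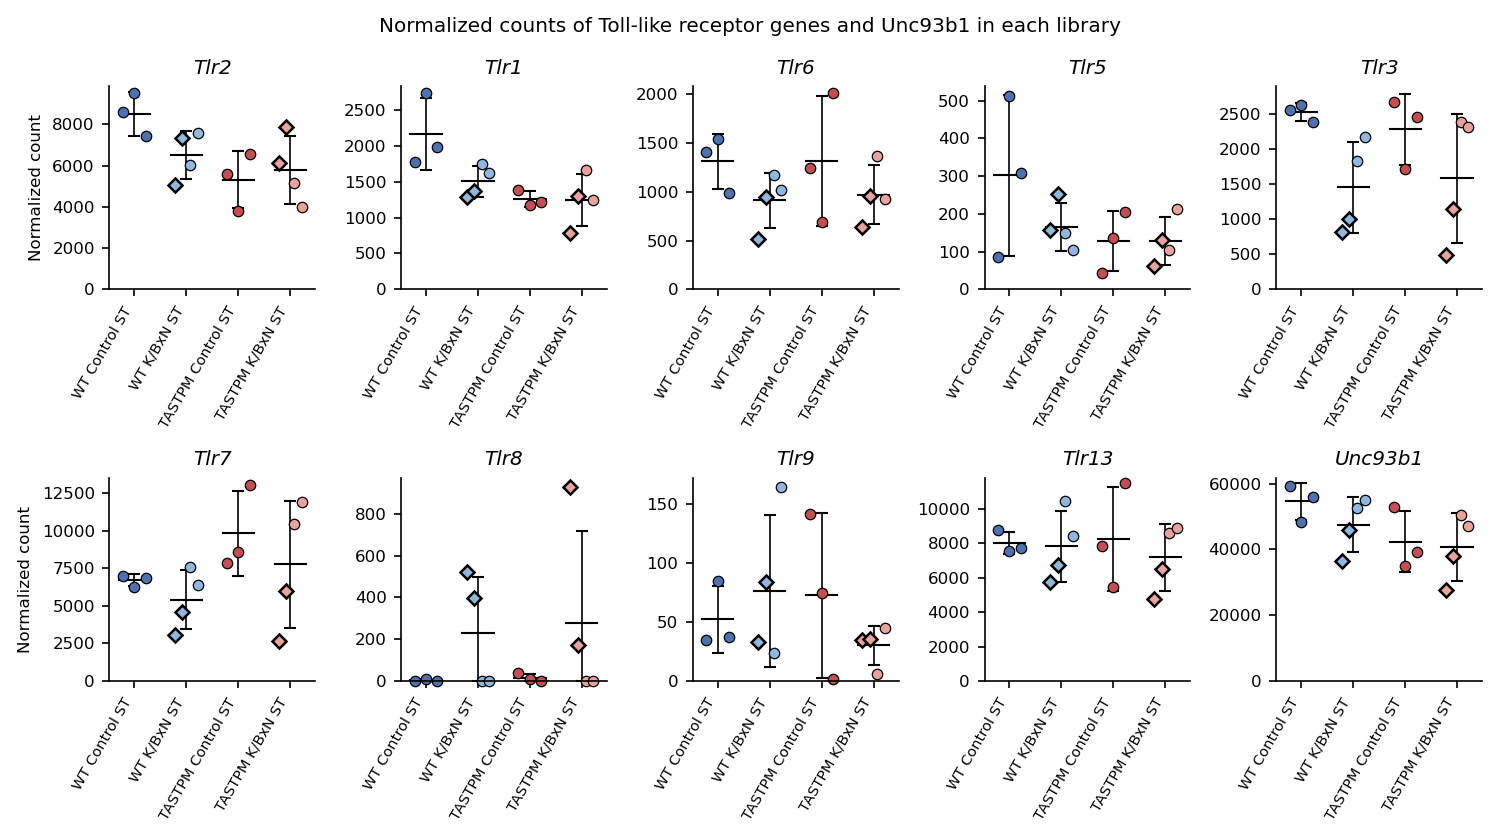
Normalized counts (vertical axes, from 0) of each of the 10 genes in the 4 groups, with 1 point per library, the mean as a bar and the SD as whiskers, cut at 0; diamonds mark the 4 K/BxN ST libraries high in monocyte markers. Tlr8 is near 0 outside the diamonds, Tlr3 is lowest in them, at 489 to 1147, and Tlr1 and Tlr2 are lower in TASTPM Control ST than in WT Control ST without overlap.

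Under Control ST, TASTPM was compared with WT in 3 against 3 libraries, for which the smallest exact permutation p is 0.10. limma called 0 of 9 members and 0 of 12645 genes (0%), and 2 members, Tlr1 and Tlr2, had an unadjusted p below 0.05, against 5.57% of all genes. Both were lower in TASTPM. Tlr1 had 1387, 1176 and 1222 normalized counts in TASTPM Control ST, each below the 1772 to 2734 of WT Control ST, as for 4.71% of all genes. Its fitted difference was -0.76 ± 0.26 (95% confidence interval -1.32 to -0.19, unadjusted p = 0.0121, adjusted p = 0.748). Without WT Control ST library 2, the highest, it was -0.57 with an unadjusted p of 0.0658. Tlr2 had 8589, 9537 and 7429 in WT Control ST and 5574, 3809 and 6545 in TASTPM Control ST, also without overlap, and a difference of -0.71 ± 0.27 (-1.28 to -0.14, unadjusted p = 0.0175, adjusted p = 0.784). Without TASTPM Control ST library 2 it was -0.49 with an unadjusted p of 0.0987. The sex-linked markers also differed between these groups, as given for Tlr7 below, and with their score as a covariate Tlr1 differed by -0.84 ± 0.29 (unadjusted p = 0.0128, limma) and Tlr2 by -0.53 ± 0.27 (unadjusted p = 0.0721).

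Tlr6, which shares the 229 bases with Tlr1, had 991 to 1537 normalized counts in WT Control ST and 687 to 2009 in TASTPM Control ST, with a difference of -0.11 ± 0.40 (95% confidence interval -0.96 to 0.75). The sum of Tlr1 and Tlr6 was 3474 ± 698 in WT Control ST and 2574 ± 686 in TASTPM Control ST (SD, n = 3 each). Tlr7 was the 1 member that was higher in TASTPM Control ST without overlap, as for 4.97% of all genes, with a difference of 0.52 ± 0.46 (adjusted p = 0.964, limma). Tlr7 is X-linked, and Xist ranged from 2.81 to 1706 normalized counts in WT Control ST and from 202 to 5048 in TASTPM Control ST, while the 4 Y-linked genes summed to 852 to 2737 and to 2.09 to 2577, and the sexes are not in the labels. The highest Tlr7 value, 13026, was in the TASTPM Control ST library with the most Y-linked counts. The other members that passed the filter had differences between -1.15 (Tlr5) and -0.020 (Tlr13), with overlapping groups. Single libraries moved these values, and that of Tlr5 ran from -1.88 without WT Control ST library 1 (unadjusted p = 0.0176, limma) to -0.52 without TASTPM Control ST library 1 (unadjusted p = 0.497). The sign changed when 1 library was left out for Tlr3, Tlr6, Tlr9 and Tlr13, and Tlr7 was 0.30 without TASTPM Control ST library 3. Tlr8, from the second fit, differed by 1.77 ± 2.82 (95% confidence interval -4.25 to 7.79, adjusted p = 0.990, limma), also with overlapping groups.

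Under K/BxN ST, 0 of 9 members were called between TASTPM and WT and 0 of 12645 genes (0%), and 0 of 9 members had an unadjusted p below 0.05, against 1.91% of all genes. Tlr2 had 5084, 7355, 6042 and 7569 normalized counts in WT and 6122, 7893, 5174 and 3985 in TASTPM, and the groups overlapped. Tlr1 had 787, 1296, 1665 and 1247 in TASTPM, overlapping with WT. The differences were -0.19 ± 0.23 for Tlr2, -0.31 ± 0.23 for Tlr1 and 0.38 ± 0.40 for Tlr7, with adjusted p = 1.00 for each (limma). Without the 4 libraries high in monocyte markers, which leaves 2 against 2, they were -0.57 for Tlr2 (unadjusted p = 0.0494), -0.23 for Tlr1 (unadjusted p = 0.417) and 0.68 for Tlr7 (unadjusted p = 0.0134), again with adjusted p = 1.00 for each (limma). Tlr8 differed by -0.075 ± 2.44 in the second fit.

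Over both sera limma called 0 of 9 members and 0 of 12645 genes (0%), with an unadjusted p below 0.05 for 2 members, against 4.68% of all genes. Tlr1 was lower in TASTPM by -0.53 ± 0.17 (95% confidence interval -0.91 to -0.16, unadjusted p = 0.00827, adjusted p = 0.926, exact stratified permutation p = 0.0114). Tlr2 was lower by -0.45 ± 0.18 (-0.83 to -0.078, unadjusted p = 0.0212, adjusted p = 1.00, exact stratified permutation p = 0.0443). Tlr7 was 0.45 ± 0.30 higher in TASTPM (-0.20 to 1.10, adjusted p = 1.00). Without the 4 libraries high in monocyte markers, Tlr7 differed by 0.60 ± 0.15 (unadjusted p = 0.00200, adjusted p = 0.660), Tlr2 by -0.64 ± 0.17 (unadjusted p = 0.00276, adjusted p = 0.681) and Tlr1 by -0.49 ± 0.17 (unadjusted p = 0.0157, adjusted p = 0.935). With the sex-linked score as a covariate Tlr7 differed by 0.38 (unadjusted p = 0.226). The interaction of genotype and serum, which asks whether the serum difference was unlike in the genotypes, was called for 0 of 9 members and 0 of 12645 genes (0%), with 0 members against 3.04% of all genes at an unadjusted p below 0.05. edgeR and DESeq2 called 0 members in the genotype comparisons and the interaction as well.

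**Figure D4:**
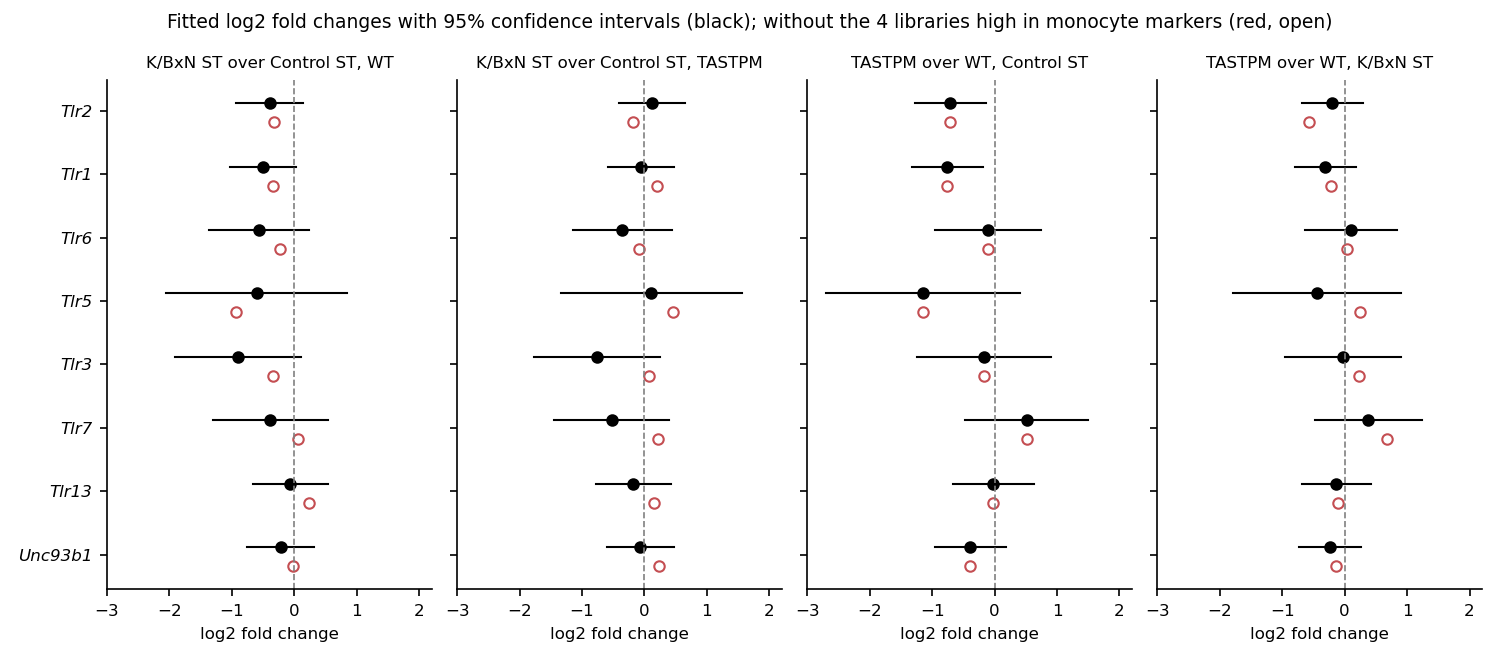
Fitted log2 fold changes (horizontal axis) of 8 genes in 4 comparisons, with 95% confidence intervals in black, and the values without the 4 libraries high in monocyte markers as open red circles; Tlr8 and Tlr9, with wider intervals, are left out. The intervals of Tlr1 and Tlr2 lie below 0 for TASTPM over WT under Control ST, at -1.32 to -0.19 and -1.28 to -0.14, and the red circles of Tlr3 lie nearer 0 than the black points for serum, at -0.34 and 0.066.

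The other genes of the pathway were taken as 4 lists, and 0 of their 39 tested genes were called in any of the 7 comparisons. Of the 13 adaptors and kinases, 13 were tested, and over both genotypes 2 had an unadjusted p below 0.05, both higher in K/BxN ST (list median 0.10 against 0.035 over all genes), beside 9.25% of all genes. Without the 4 libraries high in monocyte markers the list median was 0.11 against 0.019 over all genes. Irak3, a kinase homologue that restrains signalling, differed by 3.04 ± 0.82 (adjusted p = 0.465), with 1.87 to 157 normalized counts in WT Control ST and 297 to 878 in WT K/BxN ST, which did not overlap, with each K/BxN ST library above, as for 3.67% of all genes. TASTPM Control ST had 19.1 to 139 and TASTPM K/BxN ST 105 to 695, which overlapped. Myd88, the adaptor that most of these receptors use, differed by 0.67 ± 0.31 (adjusted p = 0.536), and Irak2, a kinase of the same complex, by -0.49 ± 0.24 (adjusted p = 0.542). These differences were 2.28 ± 1.08 for Irak3, 0.070 ± 0.15 for Myd88 and -0.10 ± 0.19 for Irak2 without the 4 libraries.

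Of the 10 genes for folding, trafficking and cleavage, 9 were tested, and 2 had an unadjusted p below 0.05 over both genotypes, both lower in K/BxN ST (list median -0.19), again beside 9.25% of all genes. Hsp90b1, the chaperone that folds Toll-like receptors, differed by -0.29 ± 0.13 and Ctsl, a protease that cleaves endosomal receptors, by -0.62 ± 0.24 (adjusted p = 0.536 for both). Lgmn, an asparagine endopeptidase of the same compartment, differed by -0.44 ± 0.23 (adjusted p = 0.558). The values were -0.19 ± 0.14 for Hsp90b1, -0.26 ± 0.11 for Ctsl and -0.060 ± 0.095 for Lgmn without the 4 libraries (list median -0.13). Of the 6 co-receptors and related surface proteins 5 were tested, and 2 had an unadjusted p below 0.05, both lower (list median -0.44), beside the same 9.25% of all genes. Ly96, which binds lipopolysaccharide with TLR4, differed by -0.55 ± 0.15 (adjusted p = 0.465), Ly86 by -0.44 ± 0.20 (adjusted p = 0.536) and Cd14, a co-receptor for several Toll-like receptors, by -0.40 ± 0.19 (adjusted p = 0.538). With those 4 left out they differed by -0.38 ± 0.17, -0.19 ± 0.15 and -0.11 ± 0.11 (list median -0.38).

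Of the 12 transcription factors and feedback genes, 12 were tested, with 1 higher and 1 lower at an unadjusted p below 0.05 over both genotypes (list median 0.059), beside 9.25% of all genes. Irf7, the interferon regulatory factor downstream of TLR7 and TLR9, differed by 2.73 ± 1.03 and Irf8, a factor of the myeloid lineage, by -0.41 ± 0.19 (adjusted p = 0.536 for both). Dusp1, a phosphatase that acts on MAP kinases, differed by 1.19 ± 0.62 (adjusted p = 0.554). Irf7 had 185 to 387 normalized counts in WT Control ST, 252 to 1383 in WT K/BxN ST, 0 to 204 in TASTPM Control ST and 169 to 1752 in TASTPM K/BxN ST. Without the 4 libraries the list median was -0.093, Irf8 differed by -0.12 ± 0.12 and Dusp1 by 0.55 ± 0.66, and Irf7 fell from 2.73 to 1.5 ± 1.27 (adjusted p = 0.966, limma).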

How the data were processed

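RNA from sorted microglia was amplified with the SMART-Seq v4 kit, and the authors aligned reads with HISAT2 2.1 to GRCm39, annotated with Ensembl release 104, and counted them per gene with featureCounts 1.5.2. The deposited values are a normalized signal, the count of a gene divided by 1 DESeq2 factor per library, and whole reads were recovered from them for 100% of the values (within 0.1 read). Of the 14 columns, the 4 of TASTPM K/BxN ST carried the same numbers as the labels of their group. In the other groups the column numbers ran differently from those of the labels. Those 10 columns were therefore placed by the group in their header and numbered in deposited order.

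Values were tested as log2(normalized count + 1) with limma 3.58.1 (trended prior) in R 4.3.3, with 1 fit to the 4 groups, on the 12645 of 14329 genes that reached 10 reads in 7 or more libraries, with Benjamini-Hochberg adjustment over them. Adding 1 understates the changes of low genes. Tlr8 failed the filter and was fitted together with the genes that passed. Calls needed an adjusted p below 0.05 and an absolute log2 fold change above 1. Differences are K/BxN ST minus Control ST and TASTPM minus WT, ± SE. Exact permutation tests were two-sided over libraries, within strata for comparisons over both. Comparisons that share control libraries are not independent.

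Alternatives were other scalings, pseudocounts and filters, edgeR 4.0.16, DESeq2 1.42.0, marker and sex-linked scores as covariates, and omitted libraries. Exon lengths are from GENCODE vM39, later than the annotation used by the authors, and promoters from RefSeq. The members and lists were chosen with earlier results of these data known. The text names all members, the called genes of each pathway list or else the 3 with the smallest unadjusted p for serum over both genotypes, and the 3 genes nearest in pattern to members with a log2 SD of at least 1.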

Additional observations from a re-analysis of the deposited data

How the results depend on the processing

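No member was called in any of the 7 comparisons under any of the 26 alternatives (0 in each), of which 14 left out 1 library each (0 to 0 members called). Their smallest adjusted p was 0.200, for Tlr8 with DESeq2. Over all 12645 genes, where limma called 1 gene for serum in WT and 0 in the other comparisons, DESeq2 called 127 for serum in WT, 16 in TASTPM and 179 over both, 41 for genotype under Control ST, 0 under K/BxN ST and 11 over both, and 12 for the interaction. edgeR called 0 in each. Leaving out 1 library gave 0 to 17 genes for serum in WT, the most without WT Control ST library 3. Of the 70 fitted values per setting, the sign changed in 0 with TMM factors, 3 with library totals, 1 and 0 with pseudocounts of 0.5 and 10, 0 without the filter, 7 with edgeR and 6 with DESeq2. It changed in 18 with the monocyte and neutrophil score as a covariate, 12 with the sex-linked score and 19 without the 4 libraries high in monocyte markers. The cause was not tested. Leaving out 1 library changed 70 of 980 signs. 2 settings were chosen after seeing the data. edgeR without the 4 libraries changed 23 signs. Scaling to the summed microglia markers changed 30, and the median of all genes was then 0.60 for serum and 0.27 for genotype over both strata, against 0.035 and 0.023 before, beside which Unc93b1 had 0.43, Tlr13 0.45 and Tlr3 -0.26 for serum, and Tlr7 0.70, Tlr1 -0.29 and Tlr2 -0.21 for genotype. No paired analysis was possible because the replicate numbers in the labels differ between the groups. Intervals of low genes such as Tlr5, Tlr8 and Tlr9 are wide, and 1684 of the 14329 deposited genes had fewer than 10 reads in more than 7 libraries, below the filter the methods of the study name.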

Other observations

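Tlr12, a murine receptor for profilin outside the 10 genes described above, had 349 to 784 normalized counts in TASTPM and 785 to 1619 in WT under K/BxN ST. The highest TASTPM and the lowest WT library were 0.855 normalized counts apart, less than 1 read, so the groups met within counting error. Its fitted difference was -1.22 ± 0.35 (95% confidence interval -1.97 to -0.48, unadjusted p = 0.00314, adjusted p = 1.00, limma). Under Control ST the difference was -0.64 ± 0.40 with overlapping groups, and over both sera -0.93 ± 0.26 (adjusted p = 0.863). Without the 4 libraries high in monocyte markers the difference under K/BxN ST was -1.40 ± 0.48. Tlr12 was noticed after its values were seen. Tlr11, the other receptor for profilin, had 0 to 106 normalized counts, and 6 of the 14 libraries were at 0.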
